A study of Mus musculus with 20 samples.

Results

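The 39 genes described here form a set of DNA damage response and repair genes given by their symbols, and all 39 were found among the 24411 symbols of each of the authors' 5 deposited comparison tables. The set holds 4 damage signalling kinases, the 3 genes of the MRN complex that senses broken ends, 9 genes of homologous recombination, 5 of end joining, 6 of single-strand break and base excision repair, 3 of mismatch repair, 3 of the Fanconi anaemia pathway, 4 of nucleotide excision repair and 2 of lesion bypass or direct reversal. The samples were mouse eggs and early embryos of C57BL/6J, an inbred strain, and B6CASTF1, a hybrid strain whose cross direction is not given in the labels. The C57BL/6J samples were 3 of MII eggs, 3 of zygotes in G1, 3 of zygotes in G2 and 3 of 2-cell embryos in G2, and the B6CASTF1 samples were 3 of G1 zygotes, 3 of G2 zygotes and 2 of 2-cell embryos in G2. In every group, per the labels, oocytes had been released from dbcAMP, which holds meiotic arrest, matured in vitro in M16 medium, fertilized in vitro (except the eggs) and cultured in KSOM medium under 5% oxygen with no treatment. Each sample pooled 10 to 15 eggs or embryos and was copied from polyadenylated RNA by the Smart-seq2 protocol with oligo-dT. Whether the samples of 1 group had separate mothers or were collected on separate days is not in the labels, and the authors' p-values measure only the spread among these samples, which may be technical.

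Cells answer broken DNA through the kinases Atm and Atr, which pass the signal to Chek2 and Chek1 and so stop the cell cycle, while separate sets of enzymes remove damaged bases, mend single-strand breaks, join broken ends or copy the intact sister. The fully grown egg is transcriptionally silent and stores these RNAs, and the embryo degrades most of the stored RNA as it starts its own transcription. In the mouse the main wave of that new transcription comes at the 2-cell stage, after a minor one in the zygote.

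The deposited tables hold 1 mean normalized count per gene and strain, fold changes between consecutive stages and their errors, and no value per sample. The spread between samples is therefore given by the authors' standard error (SE), and the level of a stage is an implied mean normalized count, computed from the authors' mean count and fold changes. These levels are fitted values with no SD, they are not comparable between genes unless divided by length, and the strains were normalized separately. A gene was called where the authors' adjusted p (DESeq2's Wald test with Benjamini-Hochberg adjustment) was under 0.05. Samples hold several eggs or embryos and no cell counts, so fewer cells, less RNA per cell and a shorter poly(A) tail cannot be told apart in any of the differences below.

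The stages matched the sums of their markers. All 10 egg markers were at an implied level of at least 1 in every group, and their sum was smaller at each later stage. It was 480425 in B6CASTF1 G1 zygotes, 139009 in G2 zygotes and 29614 in 2-cell embryos. In C57BL/6J it was 495431 in eggs, 237816 in G1 zygotes, 102267 in G2 zygotes and 23067 in 2-cell embryos. Single egg markers did not all follow the sum. Bmp15, Nlrp5 and Zp2 were higher in G2 than in G1 zygotes of both strains. Bmp15 went from 40087 to 53932 in B6CASTF1 and from 19601 to 26506 in C57BL/6J. Zp3 was higher in 2-cell embryos than in G2 zygotes of both strains. The 8 markers of the 2-cell embryo summed to 29902 in B6CASTF1 2-cell embryos, against 2493 in B6CASTF1 G2 zygotes. In C57BL/6J they summed to 8900 in 2-cell embryos and 1733 in G2 zygotes. Of 12 cumulus and granulosa markers, 7 to 10 were at an implied level of at least 1 in the B6CASTF1 groups and 4 to 5 in the C57BL/6J groups. Their sum ranged over 1534 to 2697 in B6CASTF1 and 302 to 1685 in C57BL/6J, with Inha, Cyp11a1, Inhba and Ptx3 listed at 0 in every C57BL/6J group. Cyp19a1 alone made up most of the sum in eggs and zygotes, with 1597 in C57BL/6J eggs and 2122 in B6CASTF1 G1 zygotes. In 2-cell embryos the largest part was Amhr2, at 891 in B6CASTF1 and 286 in C57BL/6J, against 0.59 and 0.19 in G2 zygotes. The sum of 7 blood and oviduct markers was 9755 in B6CASTF1 2-cell embryos, against 130 in B6CASTF1 G2 zygotes. In C57BL/6J that sum was 6453 in 2-cell embryos and 98.5 in G2 zygotes. Epcam, an epithelial adhesion gene, and Hba-a1, an alpha globin gene, made up most of both 2-cell sums, and Hbb-bs, a beta globin gene, was listed at 0 throughout. Whether other cells had a part in the results below was not tested.

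Promoters of the genes that the later results turn on are shown first. Each sequence runs 5′ to 3′ on the gene's own strand from 250 bases before to 50 bases after the start of the gene, from RefSeq on GRCm38.p6, and promoters of 33 of the 39 genes were found in that table. Capitals mark a match to one of 6 motifs of 8 letters searched on both strands, so a match on the other strand appears as its reverse complement. The 6 were CAAGGTCA and CAAGGCCA (both forms of the Nr5a2 site), TTTCCCGC, TTTGGCGC and TTTCGCGC (E2F sites) and GCATGCGC (the core of the NRF1 site). The first pair shown holds the effector kinases of the damage checkpoint. Chek1 has no capitals because none of the 6 was matched in its window. A site outside the window or cut by its edge is not counted. The start of Chek1 in GENCODE M21, at 36727065, lies outside the window shown, so a lack of sites is not read from it. The remaining genes are the kinase upstream of Chek2, a recombination mediator and members of the mismatch repair group.
Chek1 (chr9:36726609-36726908, minus strand): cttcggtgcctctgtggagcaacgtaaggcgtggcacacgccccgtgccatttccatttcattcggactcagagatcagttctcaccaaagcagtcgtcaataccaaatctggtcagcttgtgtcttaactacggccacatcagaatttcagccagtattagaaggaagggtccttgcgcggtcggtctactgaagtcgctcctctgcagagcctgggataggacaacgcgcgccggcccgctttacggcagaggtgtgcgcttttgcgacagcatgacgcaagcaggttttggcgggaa
Chek2 (chr5:110839733-110840032, plus strand): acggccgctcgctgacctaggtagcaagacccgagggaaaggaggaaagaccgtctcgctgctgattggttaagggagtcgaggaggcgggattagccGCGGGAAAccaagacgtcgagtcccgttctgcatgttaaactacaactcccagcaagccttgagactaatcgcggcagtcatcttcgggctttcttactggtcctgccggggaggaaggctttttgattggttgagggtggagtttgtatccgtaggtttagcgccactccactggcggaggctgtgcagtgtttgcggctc
Atm (chr9:53536622-53536921, minus strand): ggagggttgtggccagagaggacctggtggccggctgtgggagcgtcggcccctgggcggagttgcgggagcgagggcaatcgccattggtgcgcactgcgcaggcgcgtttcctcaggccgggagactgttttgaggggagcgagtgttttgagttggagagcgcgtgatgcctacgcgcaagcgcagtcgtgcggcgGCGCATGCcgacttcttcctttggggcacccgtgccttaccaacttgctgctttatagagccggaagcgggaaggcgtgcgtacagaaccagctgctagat
Brca2 (chr5:150522371-150522670, plus strand): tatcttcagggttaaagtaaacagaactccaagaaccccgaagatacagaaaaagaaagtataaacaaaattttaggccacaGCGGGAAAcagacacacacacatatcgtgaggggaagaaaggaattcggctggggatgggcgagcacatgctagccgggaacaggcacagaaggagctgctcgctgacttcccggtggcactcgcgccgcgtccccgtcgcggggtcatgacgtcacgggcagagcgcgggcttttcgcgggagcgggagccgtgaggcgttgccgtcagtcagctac
Msh6 (chr17:87974800-87975099, plus strand): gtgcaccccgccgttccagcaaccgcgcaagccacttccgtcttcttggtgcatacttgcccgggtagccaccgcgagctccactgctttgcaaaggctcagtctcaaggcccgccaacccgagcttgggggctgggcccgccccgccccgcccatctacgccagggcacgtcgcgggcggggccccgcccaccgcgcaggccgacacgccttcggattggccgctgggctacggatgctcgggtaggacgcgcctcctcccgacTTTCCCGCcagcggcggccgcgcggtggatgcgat
Pms2 (chr5:143909751-143910050, plus strand): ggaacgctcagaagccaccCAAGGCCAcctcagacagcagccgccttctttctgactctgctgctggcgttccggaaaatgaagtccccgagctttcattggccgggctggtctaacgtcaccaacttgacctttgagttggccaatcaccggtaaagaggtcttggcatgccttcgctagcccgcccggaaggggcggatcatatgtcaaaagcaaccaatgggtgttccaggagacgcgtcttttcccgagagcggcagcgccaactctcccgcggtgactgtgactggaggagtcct

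An exact match to any of the E2F motifs searched was present in 7 of the 33 promoters (Bard1, Brca2, Chek2, Msh3, Msh6, Rad51c and Xrcc6). This was 21.2%, beside 1.91% of the 27025 promoters in the table. TTTCCCGC alone was in 5 of the 33 and in 1.11% of all promoters. In Msh3 the TTTGGCGC and TTTCGCGC matches overlap each other. GCATGCGC was in 6 of the 33 (Atm, Fanci, Lig4, Parp2, Xpa and Xrcc5) and in 2.8% of all. CAAGGCCA was in 1 of the 33 (Pms2) and in 2.41% of all, and CAAGGTCA in 0 of the 33 and 1.53% of all. The short NF-Y motif CCAAT, not capitalised, was in 16 of the 33, or 48.5%, and in 37.9% of all. Genes with an E2F match did not share a direction at the 2-cell stage: Chek2 and Brca2 rose in both strains, Msh3 and Msh6 fell in both, Rad51c was called lower in B6CASTF1 but not in C57BL/6J, and Bard1 and Xrcc6 were called in neither.

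Few of the genes were called before the 2-cell stage. In C57BL/6J G1 zygotes against MII eggs, 1 of the 36 genes tested was called higher and 0 lower, or 2.78% and 0%, where 1.62% of all 13551 genes tested were called higher and 1.12% lower. The gene called was Xrcc3, a gene of homologous recombination, whose implied level was 79.1 in G1 zygotes, against 6.86e-06 in eggs. The eggs were thus at about 0, no fold is given, and the call was lost when an implied level of at least 1 was required in both stages. The other 35 tested genes had log2 fold changes between -1.68 and 1.92 in the authors' deposited table, with adjusted p of 0.94 to 0.9995. The authors' SE for these genes had a median of 1.36, against 1.26 for all genes tested, so only large changes could pass. At an unadjusted p under 0.05, DESeq2 likewise gave 1 of the 36 genes.

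Chek1, the kinase that restrains entry into mitosis when replication is incomplete, was by far the most abundant of the set in eggs and zygotes. Per kilobase of the longest coding transcript it ranked first of the 39 in all 5 egg and zygote groups, with 55.5% to 60.1% of the summed level. Its implied mean normalized count was 27700 in eggs, 30674 in G1 zygotes and 24535 in G2 zygotes of C57BL/6J. In B6CASTF1 it was 30786 in G1 zygotes and 29682 in G2 zygotes. Xrcc4, the scaffold of the end-joining ligase, and the mismatch sensors Msh3 and Msh6 took the next 3 ranks per kilobase, in varying order, in all 5 of those groups. In 2-cell embryos of both strains Chek1 was seventh per kilobase, with 3.59% of the sum in B6CASTF1 and 5.06% in C57BL/6J.

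**Figure D1:**
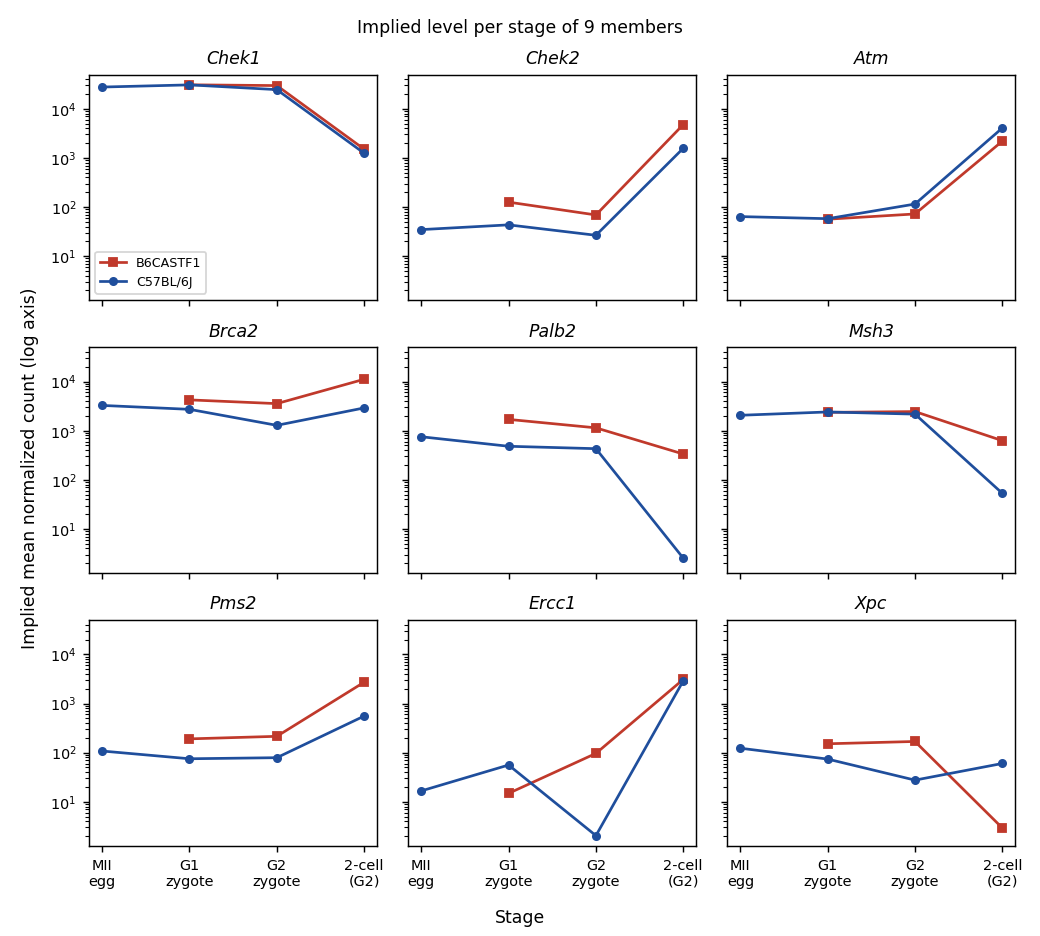
Implied mean normalized count (log axis) of 9 of the 39 genes at each stage, 1 panel a gene, with 1 line for B6CASTF1 and 1 for C57BL/6J; the strains were normalized separately and the points carry no error. Chek1 stays between 24535 and 30786 until the G2 zygote and is at 1503 (B6CASTF1) and 1246 (C57BL/6J) in 2-cell embryos, while Chek2, Atm and Ercc1 are highest in 2-cell embryos.

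Within the first cell cycle, G2 zygotes were set against G1 zygotes in both strains. In B6CASTF1, 4 of 39 genes were called higher and 3 lower, or 10.3% and 7.69%, beside 9.63% of all 14668 genes tested in each direction. In C57BL/6J, 0 of 36 were called higher and 3 lower, or 0% and 8.33%, beside 5.01% higher and 2.87% lower among all 13264 genes tested. DESeq2's unadjusted p was under 0.05 for 14 of the set in B6CASTF1 and for 4 in C57BL/6J. The share of all genes at an unadjusted p was not worked out for any comparison. Nothing particular to the set is therefore read from such counts. The set's median log2 fold change was -0.10 in B6CASTF1, where that of all genes was 0.00, and -0.26 in C57BL/6J, where that of all genes was 0.12.

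In B6CASTF1 the genes that rose were Ercc1, Rad52, Xrcc5 and Lig3. Ercc1 encodes the non-catalytic subunit of the nuclease that cuts 5′ of bulky lesions. It rose by 2.70 as a log2 fold change (SE 0.65, adjusted p = 0.00045, mean count 815 per the authors' deposited table). Implied levels were 96.5 in G2 zygotes and 14.8 in G1 zygotes. Rad52, which anneals single strands, rose by 1.35 (SE 0.43, adjusted p = 0.013, mean count 346 per the authors' deposited table). Xrcc5, the Ku80 subunit that binds broken ends, rose by 1.23 (SE 0.41, adjusted p = 0.018, mean count 493 per the authors' deposited table). Lig3, the ligase partner of Xrcc1, rose by 0.92 (SE 0.30, adjusted p = 0.017, mean count 367 per the authors' deposited table). These 4 genes thus come from 4 different repair routes.

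The B6CASTF1 genes that fell were Xrcc1, Fancd2 and Lig4. Xrcc1, the scaffold of single-strand break repair, fell by 2.08 (SE 0.44, adjusted p = 3.5e-05, mean count 279.8 per the authors' deposited table), so that this scaffold and its ligase were called in opposite directions. Fancd2, which is monoubiquitinated when replication forks stall at crosslinks, fell by 1.62 (SE 0.28, adjusted p = 1.3e-07, mean count 666 per the authors' deposited table). Lig4, the ligase of end joining, fell by 1.25 (SE 0.34, adjusted p = 0.0020, mean count 464 per the authors' deposited table).

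In C57BL/6J the 3 genes called lower were Ercc1, Ogg1 and Parp1. Ercc1 fell by 4.77 (SE 1.45, adjusted p = 0.018, mean count 740.3 per the authors' deposited table) to an implied level of 2.04 in G2 zygotes, against 55.95 in G1 zygotes. Ogg1, the glycosylase that removes 8-oxoguanine, fell by 4.53 (SE 1.46, adjusted p = 0.029, mean count 56.4 per the authors' deposited table) to 2.69, against 62.2. Parp1, the main sensor of single-strand breaks, fell by 2.23 (SE 0.69, adjusted p = 0.021, mean count 239.9 per the authors' deposited table) to 53.0, against 249. For 2 of these 3 genes the G2 level lies near 1 normalized count, and 0 of the 3 calls held at an adjusted p under 0.01. In B6CASTF1 the log2 fold change was -1.50 for Ogg1 (SE 0.62, adjusted p = 0.069) and -0.00 for Parp1 (SE 0.37, adjusted p = 0.996) according to the authors' deposited table.

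**Figure D2:**
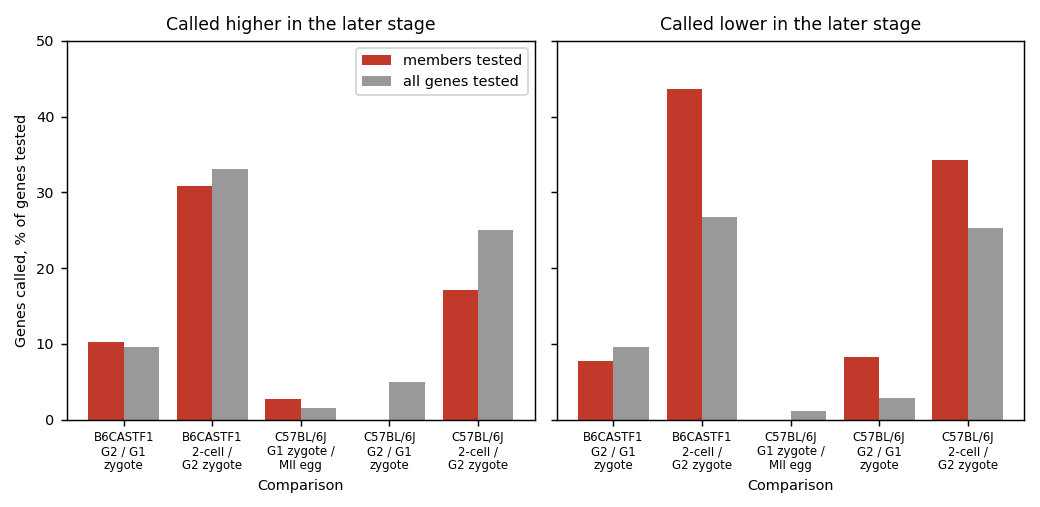
Percent of genes called higher (left) and lower (right) in the later stage of each comparison, with a bar for the 39 genes that were tested and a bar for all genes tested. The 2-cell bars are the tallest, and there the set's bar is above that of all genes for lower calls (43.6% against 26.8% in B6CASTF1, 34.3% against 25.3% in C57BL/6J) and under it for higher calls. The median SE at that step was 0.46 for the set and 0.75 for all genes tested in B6CASTF1, and 1.38 and 1.27 in C57BL/6J.

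The large changes came between G2 zygotes and 2-cell embryos, the step that spans the first division and the main start of embryonic transcription. In B6CASTF1, 12 of 39 genes rose and 17 fell, or 30.8% and 43.6%, beside 33.1% and 26.8% of all 16128 genes tested. In C57BL/6J, 6 of 35 rose and 12 fell, or 17.1% and 34.3%, beside 25.0% and 25.3% of all 12839 genes tested. The set's median log2 fold change was -0.46 in B6CASTF1, where that of all genes was 0.55, and -1.57 in C57BL/6J, where that of all genes was 0.17. Every gene was also centred on the median of genes with mean counts of at least 100. That median was 0.22 in B6CASTF1 and 0.20 in C57BL/6J. This centring left 12 higher and 17 lower in B6CASTF1 and gave 5 higher and 12 lower in C57BL/6J. Centring on the median of all genes tested was not run. The authors' SE had a median over the set of 0.46 in B6CASTF1 and 1.38 in C57BL/6J, so a change of a given size was harder to call in C57BL/6J. Over all genes tested the median SE was 0.75 in B6CASTF1 and 1.27 in C57BL/6J. In B6CASTF1 a change of a given size was thus easier to call in the set than in all genes. How far this raised the set's share of calls there was not tested. This comparison shares its G2 zygotes with the previous one, so a G2 value that is high or low moves both fold changes in opposite directions.

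**Figure D3:**
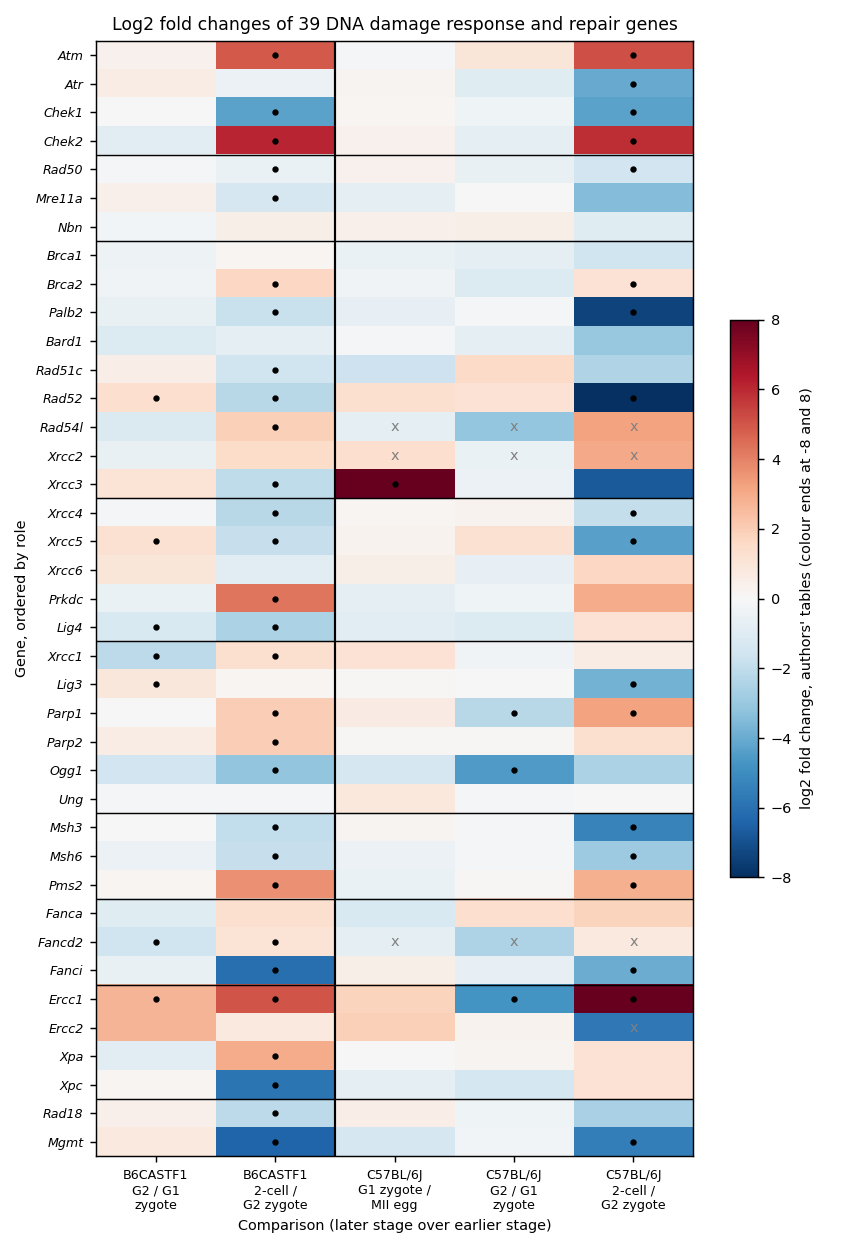
Log2 fold changes (colour, ending at -8 and 8) of the 39 genes in rows ordered by role, with the 5 comparisons in columns, B6CASTF1 left of the vertical line and C57BL/6J right of it. The 2-cell columns are the most strongly coloured, with increases and decreases inside most role groups. Black dots mark called genes, grey crosses genes with no adjusted p, and Xrcc3 against MII eggs lies beyond the colour range because its egg level is about 0.

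The damage signalling kinases split at the 2-cell stage, with 3 of them called in both strains and in the same direction. Chek2, the effector of the double-strand break branch, rose by 6.11 in B6CASTF1 (SE 0.44, adjusted p = 1.7e-43, mean count 1266) and by 5.88 in C57BL/6J (SE 1.43, adjusted p = 0.00015, mean count 419) in the authors' deposited tables. Its implied level was 4770 in 2-cell embryos and 68.9 in G2 zygotes of B6CASTF1, and 1571 in 2-cell embryos and 26.6 in G2 zygotes of C57BL/6J. Atm, which activates Chek2, rose by 4.92 in B6CASTF1 (SE 0.72, adjusted p = 3.1e-11, mean count 597) and by 5.14 in C57BL/6J (SE 0.96, adjusted p = 4.8e-07, mean count 1076) in the authors' deposited tables. Atm thus reached 2194 in B6CASTF1 2-cell embryos, against 72.3 in G2 zygotes, and 4066 in C57BL/6J 2-cell embryos, against 115 in G2 zygotes.

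Chek1 fell by 4.30 in B6CASTF1 (SE 0.13, adjusted p = 6.1e-230, the smallest of the set, mean count 23051) and fell by 4.30 in C57BL/6J (SE 0.67, adjusted p = 1.0e-09, mean count 21039) in the authors' deposited tables. Its implied level was 1503 in 2-cell embryos and 29682 in G2 zygotes of B6CASTF1, and 1246 in 2-cell embryos and 24535 in G2 zygotes of C57BL/6J. Atr, the kinase upstream of Chek1, had a log2 fold change of -0.46 in B6CASTF1 (SE 0.56, adjusted p = 0.48) and fell by 4.003 in C57BL/6J (SE 1.76, adjusted p = 0.047) in the authors' deposited tables. The difference between strains for Atr was 3.54 (SE 1.85, 95% interval -0.09 to 7.17, adjusted p = 0.20).

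Of the MRN complex, which tethers broken ends and activates Atm, 2 of 3 genes fell in B6CASTF1 and 1 of 3 in C57BL/6J. Rad50, the ATPase of the complex, fell by 0.55 in B6CASTF1 (SE 0.18, adjusted p = 0.0053) and fell by 1.55 in C57BL/6J (SE 0.48, adjusted p = 0.0033, mean count 1887) in the authors' deposited tables. Mre11a, the nuclease, fell by 1.35 in B6CASTF1 (SE 0.33, adjusted p = 0.00012, mean count 481), and in C57BL/6J its log2 fold change was -3.48 (SE 1.65, adjusted p = 0.066) in the authors' deposited tables. Nbn, which links the complex to Atm, was called in neither strain, at 0.46 (SE 0.29) in B6CASTF1 and -0.97 (SE 0.76) in C57BL/6J in the authors' deposited tables. Thus 0 of the 3 genes were called higher at this step, beside 33.1% of all genes in B6CASTF1 and 25.0% in C57BL/6J. With 3 genes, nothing particular to the complex is read from this count.

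Homologous recombination held both directions. In B6CASTF1 2 of its 9 genes rose and 4 fell, and in C57BL/6J 1 of 7 tested rose and 2 fell. Brca2, a mediator of strand exchange, rose by 1.65 in B6CASTF1 (SE 0.16, adjusted p = 4.9e-24, mean count 5713) and by 1.178 in C57BL/6J (SE 0.45, adjusted p = 0.022) in the authors' deposited tables. The implied level of Brca2 was 11150 in 2-cell embryos and 3560 in G2 zygotes of B6CASTF1, and 2911 in 2-cell embryos and 1286 in G2 zygotes of C57BL/6J. The C57BL/6J call was lost (adjusted p = 0.060) when fold changes were centred on the median of genes with mean counts of at least 100. Palb2, which brings BRCA2 to BRCA1, went the other way. It fell by 1.77 in B6CASTF1 (SE 0.34, adjusted p = 8.7e-07, mean count 1150) and fell by 7.40 in C57BL/6J (SE 0.95, adjusted p = 9.4e-14, mean count 417) in the authors' deposited tables.

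Palb2 stood at 335 in 2-cell embryos and 1144 in G2 zygotes of B6CASTF1, and at 2.55 in 2-cell embryos and 431 in G2 zygotes of C57BL/6J. Rad52 fell by 2.25 in B6CASTF1 (SE 0.49, adjusted p = 1.2e-05, mean count 346) and fell by 8.36 in C57BL/6J (SE 1.93, adjusted p = 6.7e-05, mean count 32.8) in the authors' deposited tables. The C57BL/6J 2-cell level of Rad52 was 0.25, against 80.5 in G2 zygotes, so that fitted value is not a bound on the fold, and the C57BL/6J call was lost when an implied level of 1 or more was required in both stages.

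The remaining recombination calls were in B6CASTF1. Rad51c, which works in complex with Xrcc3, fell by 1.60 (SE 0.31, adjusted p = 1.2e-06) and Xrcc3 by 2.00 (SE 0.84, adjusted p = 0.030) according to the authors' deposited table. Rad54l, a motor that helps strand exchange, rose by 1.88 (SE 0.52, adjusted p = 0.00066) according to the authors' deposited table. Brca1 and its partner Bard1 were called in neither strain. Brca1 had a log2 fold change of 0.17 in B6CASTF1 (SE 0.32) and -1.57 in C57BL/6J (SE 1.36), in the authors' deposited tables. Rad54l, Xrcc2 and Fancd2 had no p in C57BL/6J in the authors' deposited tables, as had 1834 of all genes there, where DESeq2 sets none for a gene with an extreme count in 1 library.

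Among the end-joining genes 3 of 5 fell and 1 rose in B6CASTF1, and 2 of 5 fell in C57BL/6J. Xrcc4 fell by 2.22 in B6CASTF1 (SE 0.25, adjusted p = 2.5e-18, mean count 667) and fell by 1.92 in C57BL/6J (SE 0.33, adjusted p = 2.8e-08, mean count 1470) in the authors' deposited tables. Its implied level was 170 in 2-cell embryos and 794 in G2 zygotes of B6CASTF1, and 547 in 2-cell embryos and 2072 in G2 zygotes of C57BL/6J. Xrcc5 fell by 1.82 in B6CASTF1 (SE 0.46, adjusted p = 0.00018) and fell by 4.32 in C57BL/6J (SE 1.39, adjusted p = 0.0051) in the authors' deposited tables. Its Ku partner Xrcc6 (Ku70) was called in neither, at -0.83 in B6CASTF1 (SE 0.54) and 1.63 in C57BL/6J (SE 1.77) in the authors' deposited tables. Prkdc, the kinase that Ku recruits, rose by 4.28 in B6CASTF1 (SE 0.61, adjusted p = 1.7e-11) according to the authors' deposited table. In C57BL/6J the Prkdc value was 2.98 (SE 2.83, adjusted p = 0.39) according to the authors' deposited table. The strains differed for Prkdc by 1.29 with a 95% interval of -4.38 to 6.97, too wide to tell its C57BL/6J value from 0 or from that of B6CASTF1.

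Of the 6 genes of single-strand break and base excision repair, 3 rose and 1 fell in B6CASTF1, and 1 rose and 1 fell in C57BL/6J. Parp1 rose by 1.95 in B6CASTF1 (SE 0.41, adjusted p = 4.9e-06) and by 3.23 in C57BL/6J (SE 0.69, adjusted p = 1.5e-05) in the authors' deposited tables. Its implied level was 1242 in 2-cell embryos and 322 in G2 zygotes of B6CASTF1, and 496 in 2-cell embryos and 53.0 in G2 zygotes of C57BL/6J. The C57BL/6J level in G1 zygotes had been 249. Parp2, which shares the break-sensing role, rose by 1.97 in B6CASTF1 (SE 0.37, adjusted p = 3.6e-07, mean count 472), and Xrcc1 rose by 1.30 (SE 0.49, adjusted p = 0.015), according to the authors' deposited table. Neither glycosylase was called higher. Ogg1 fell by 3.15 in B6CASTF1 (SE 0.73, adjusted p = 4.2e-05), and Ung, which removes uracil, was at -0.07 (SE 0.70) there and at 0.01 in C57BL/6J (SE 1.38), in the authors' deposited tables.

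Mismatch repair showed the same split in both strains. Msh6, which reads single mismatches, fell by 1.86 in B6CASTF1 (SE 0.23, adjusted p = 2.7e-15) and fell by 2.88 in C57BL/6J (SE 0.97, adjusted p = 0.0078) in the authors' deposited tables. Msh3, which reads larger loops, fell by 1.97 in B6CASTF1 (SE 0.20, adjusted p = 2.2e-22, mean count 1962) and fell by 5.36 in C57BL/6J (SE 0.75, adjusted p = 1.1e-11, mean count 1674) in the authors' deposited tables. Pms2, the endonuclease that acts after recognition, rose by 3.66 in B6CASTF1 (SE 0.43, adjusted p = 8.0e-17) and by 2.82 in C57BL/6J (SE 0.69, adjusted p = 0.00019) in the authors' deposited tables. Pms2 was at 2717 in 2-cell embryos and 215 in G2 zygotes of B6CASTF1, and at 556 in 2-cell embryos and 78.9 in G2 zygotes of C57BL/6J.

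Of the Fanconi genes, Fanci and Fancd2 encode partners of 1 complex and were called in opposite directions in B6CASTF1. Fanci fell by 6.03 in B6CASTF1 (SE 0.86, adjusted p = 1.1e-11, mean count 152) and fell by 3.99 in C57BL/6J (SE 1.43, adjusted p = 0.013, mean count 70.2) in the authors' deposited tables. Its implied level was 2.46 in 2-cell embryos and 161 in G2 zygotes of B6CASTF1, and 4.66 in 2-cell embryos and 74.0 in G2 zygotes of C57BL/6J. Fancd2 rose by 1.08 in B6CASTF1 (SE 0.31, adjusted p = 0.0010) according to the authors' deposited table, after its fall within the zygote. Its B6CASTF1 levels were 996 in G1 zygotes, 324 in G2 zygotes and 686 in 2-cell embryos. Fanca, of the core complex, was called in no comparison.

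Ercc1 (chr7:19344778-19356524, plus strand of GRCm38) had the highest fold change of the nucleotide excision repair genes. It rose by 5.00 in B6CASTF1 (SE 0.68, adjusted p = 1.1e-12, mean count 815) and by 10.46 in C57BL/6J (SE 1.45, adjusted p = 7.0e-12, mean count 740) in the authors' deposited tables. Its 2-cell levels were alike as implied, at 3093 in B6CASTF1 and 2887 in C57BL/6J on the 2 scales, and the G2 zygotes behind them were at 96.5 in B6CASTF1 and 2.04 in C57BL/6J. Per kilobase Ercc1 ranked first of the 39 in both strains' 2-cell embryos, with 20.4% of the sum in B6CASTF1 and 32.4% in C57BL/6J, and Chek2 ranked second with 19.0% in B6CASTF1 and 10.6% in C57BL/6J. Xpa, which checks the opened lesion, rose by 2.94 in B6CASTF1 (SE 0.50, adjusted p = 1.1e-08) according to the authors' deposited table, and was at 1.16 in C57BL/6J (SE 1.47, adjusted p = 0.53). Xpc, the global lesion sensor, fell by 5.85 in B6CASTF1 (SE 0.86, adjusted p = 4.1e-11, mean count 121) according to the authors' deposited table to an implied level of 2.92, against 169 in G2 zygotes. In C57BL/6J the Xpc value was 1.13 (SE 1.44, adjusted p = 0.54, mean count 71.1) according to the authors' deposited table.

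Of the genes of lesion bypass and direct reversal, both fell in B6CASTF1 and 1 of 2 in C57BL/6J. Rad18, the ligase that ubiquitinates PCNA at stalled forks, fell by 2.11 in B6CASTF1 (SE 0.26, adjusted p = 2.5e-15, mean count 936), and in C57BL/6J it was at -2.60 (SE 1.39, adjusted p = 0.11), in the authors' deposited tables. Mgmt, which takes methyl groups off guanine, fell by 6.43 in B6CASTF1 (SE 1.93, adjusted p = 0.0019, mean count 24.8) and fell by 5.51 in C57BL/6J (SE 2.10, adjusted p = 0.020, mean count 14.5) in the authors' deposited tables. Mgmt was at 0.49 in 2-cell embryos and 41.8 in G2 zygotes of B6CASTF1, and at 0.25 in 2-cell embryos and 11.2 in G2 zygotes of C57BL/6J, so its fitted folds are not bounds. Both Mgmt calls were lost when an implied level of 1 or more was required in both stages. Ercc2, a helicase of the opened lesion, was called in no comparison, with implied levels of 0.24 to 21.6 over all groups. At the 2-cell step in C57BL/6J Ercc2 had no adjusted p, so it was not tested there. In all, 9 genes were called in no B6CASTF1 comparison (Atr, Nbn, Brca1, Bard1, Xrcc2, Xrcc6, Ung, Fanca and Ercc2) and 19 in no C57BL/6J comparison. These counts cover 2 comparisons in B6CASTF1 and 3 in C57BL/6J. The 19 include Rad54l, Xrcc2 and Fancd2, which had no p in C57BL/6J. The matching share of all genes was not worked out, so nothing particular to the set is read from them.

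At the 2-cell step 35 genes were tested in both strains. In those 35, 10 rose in B6CASTF1 and 6 in C57BL/6J, and all 6 of the C57BL/6J genes were among the 10 (Atm, Brca2, Chek2, Ercc1, Parp1 and Pms2). Of all genes tested in both strains, 82.6% of the 3157 that rose in C57BL/6J also rose in B6CASTF1. Likewise 17 fell in B6CASTF1 and 12 in C57BL/6J, of which 10 were shared (Chek1, Fanci, Mgmt, Msh3, Msh6, Palb2, Rad50, Rad52, Xrcc4 and Xrcc5) and the others in C57BL/6J were Atr and Lig3. Of all 3219 genes that fell in C57BL/6J, 71.9% also fell in B6CASTF1. The shared falls of Mgmt and Rad52 were lost when an implied level of 1 or more was required in both stages, Mgmt in both strains and Rad52 in C57BL/6J, since their 2-cell levels there were under 1. The fold changes of the set had the same sign in 28 of 35, beside 81.2% of all 12573 genes, and 0 of the 35 were called in opposite directions, beside 0.986% of all genes. The overlap between strains was thus near that of all genes. Between G1 and G2 zygotes, 36 genes were tested in both strains, 0 calls were shared in direction, and 23 of 36 fold changes had the same sign, beside 65.6% of all 12517 genes. Of all genes, 2.28% were called higher and 1.24% lower in both strains at that step. Ercc1 was called in opposite directions, as were 19 of all 12517 genes.

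**Figure D4:**
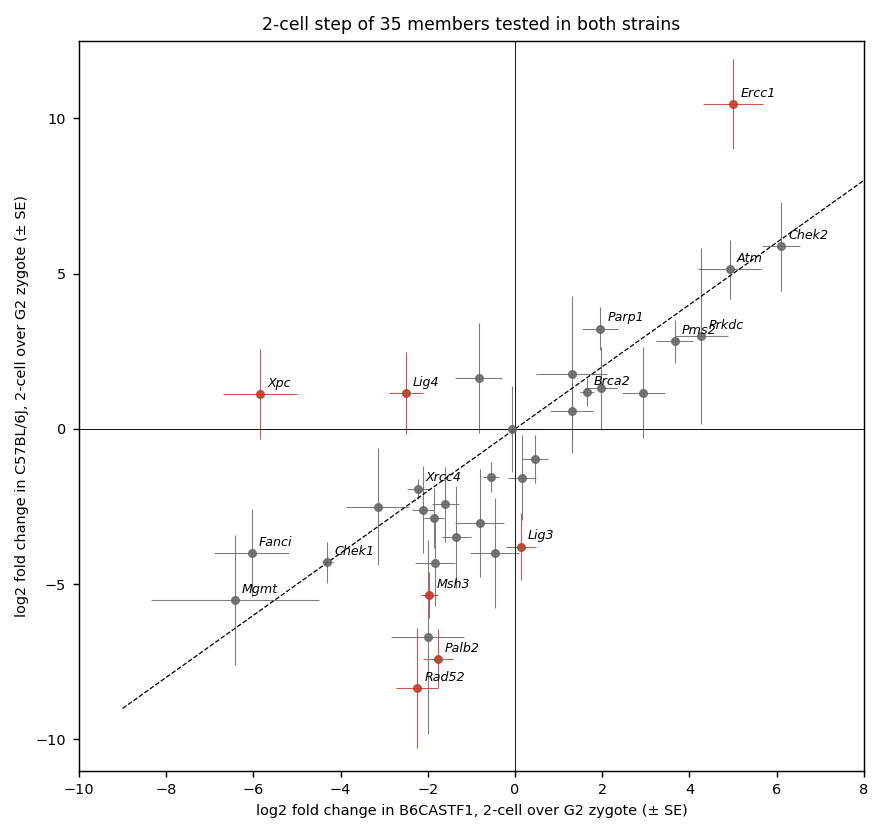
Log2 fold change from G2 zygote to 2-cell embryo of the 35 genes tested in both strains, B6CASTF1 on the x axis and C57BL/6J on the y axis, with error bars of 1 SE. Chek1 lies on the line of equal change at -4.30 in both strains, and the 7 genes whose strain difference was called (Palb2, Rad52, Lig4, Lig3, Msh3, Ercc1 and Xpc) lie off it.

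The difference between strains was tested gene by gene, by subtracting the authors' C57BL/6J log2 fold change from that of B6CASTF1 and dividing by the combined SE, adjusted by Benjamini-Hochberg over all genes tested in both strains. At the 2-cell step 7 of 35 genes differed, beside 16.6% of all 12573 genes, which is close to the background, and 8 of 35 had an unadjusted p under 0.05. Palb2 fell less in B6CASTF1, by 5.63 (SE 1.01, adjusted p = 1.21e-06). Msh3 (3.39, SE 0.77, adjusted p = 0.00025) and Rad52 (6.11, SE 1.99, adjusted p = 0.018) also fell less in B6CASTF1. Lig3 differed by 3.93 (SE 1.13, adjusted p = 0.0059), where it fell by 3.79 in C57BL/6J (SE 1.08, adjusted p = 0.0015, mean count 166) and was at 0.14 in B6CASTF1 (SE 0.34) in the authors' deposited tables. The C57BL/6J level of Lig3 was 16.4 in 2-cell embryos and 227 in G2 zygotes. Xpc differed by -6.98 (SE 1.67, adjusted p = 0.00055) and Lig4 by -3.66 (SE 1.37, adjusted p = 0.046), and for both the B6CASTF1 value was a called fall and the C57BL/6J value an uncalled positive one. Lig4 fell by 2.51 in B6CASTF1 (SE 0.39, adjusted p = 8.2e-10) and was at 1.15 in C57BL/6J (SE 1.31, adjusted p = 0.48, mean count 422) in the authors' deposited tables.

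Ercc1 was the 1 gene whose strain difference was called at both steps. From G1 to G2 zygotes the strains differed by 7.48 (SE 1.59, adjusted p = 0.00057), with 1 of 36 genes called beside 1.92% of all 12517. For the division to 2 cells the Ercc1 difference was -5.46 (SE 1.60, adjusted p = 0.0071). Both values use the G2 zygotes of C57BL/6J, at an implied level of 2.04. For 3 genes called alike in both strains the 2-cell difference was -0.00 for Chek1 (95% interval -1.33 to 1.33), -0.30 for Xrcc4 (-1.10 to 0.50) and 0.47 for Brca2 (-0.48 to 1.41). For Chek2 (0.23, -2.70 to 3.15) and Atm (-0.22, -2.56 to 2.12) the interval was wider and holds differences of several fold in either direction.

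A longer list of 130 other genes of the same pathways was read beside the set. From G2 zygotes to 2-cell embryos, 47 of 128 tested rose and 42 fell in B6CASTF1 (36.7% and 32.8%), beside 33.1% and 26.8% of all genes. In C57BL/6J 26 of 119 rose and 30 fell (21.8% and 25.2%), beside 25.0% and 25.3% of all genes. The larger share of falls in the set was thus not seen in the longer list in C57BL/6J, and was smaller there in B6CASTF1. Within the zygote 13 of 125 rose and 16 fell in B6CASTF1 (10.4% and 12.8%), beside 9.63% of all genes in each direction. In C57BL/6J 9 of 121 rose and 1 fell (7.44% and 0.826%), beside 5.01% and 2.87% of all genes. From eggs to G1 zygotes 0 of 121 rose and 3 fell (0% and 2.48%), beside 1.62% and 1.12% of all genes. The call with the smallest adjusted p at that first step was Ube2t, the conjugating enzyme for FANCD2, which fell by 2.88 (SE 0.17, adjusted p = 5.6e-62) according to the authors' deposited table to 3687 in G1 zygotes, against 27179 in eggs. Ube2t then rose by 0.89 in C57BL/6J G2 zygotes (SE 0.17, adjusted p = 1.1e-05), and Ercc4, the catalytic partner of ERCC1, fell by 5.73 there (SE 1.25, adjusted p = 0.00023), according to the authors' deposited table. Ercc4 thus stood at 0.70 in C57BL/6J G2 zygotes and 37.2 in G1 zygotes, in the same samples in which Ercc1 was at 2.04 and 55.95. The Ercc4 level in G2 zygotes was under 1, so its fitted fall is not a bound on the fold. Whether Ercc4 and Ercc1 fell together was not tested.

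In B6CASTF1 G2 zygotes Ube2a, the RAD6 enzyme that works with RAD18, rose by 2.15 (SE 0.19, adjusted p = 5.0e-28), and Trp53bp1, which steers breaks towards end joining, fell by 1.0004 (SE 0.17, adjusted p = 1.1e-07), according to the authors' deposited table. At the 2-cell step in B6CASTF1, Faap24, a DNA-binding Fanconi factor, rose by 5.44 (SE 0.30, adjusted p = 1.9e-73), and Helq, a repair helicase, fell by 3.96 (SE 0.15, adjusted p = 6.5e-155), according to the authors' deposited table. In C57BL/6J, Ube2v2, of the enzyme that extends PCNA ubiquitin chains, rose by 3.10 (SE 0.33, adjusted p = 6.8e-20), and Sfr1, a cofactor of strand exchange, fell by 3.23 (SE 0.31, adjusted p = 1.8e-23), according to the authors' deposited table.

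In GENCODE M21, 19 of the 39 genes have a gene that starts within 1000 bases of their own start and runs the opposite way, in 20 pairs. At the 2-cell step in B6CASTF1, both genes were called in 14 of the 19 pairs tested, 11 in the same direction and 3 in opposite directions. Over all pairs of this kind in the annotation, both genes were called in 42.0% of 1141 tested in B6CASTF1, and 339 of those 479 pairs (70.8%) moved in the same direction. In C57BL/6J both were called in 6 of 16 pairs, 3 in the same direction and 3 in opposite directions, beside 23.3% of all 862 pairs tested, of which 136 of 201 (67.7%) moved in the same direction. With so few pairs, nothing particular to the set is read from these counts. Pms2 and Aimp2, a scaffold of tRNA synthetases, start 117 bases apart and both rose, Aimp2 by 3.53 in B6CASTF1 (SE 0.28) and by 4.77 in C57BL/6J (SE 0.63) in the authors' deposited tables. Atm and Npat, a histone gene coactivator, start 307 bases apart, and Npat rose by 3.71 in B6CASTF1 (SE 0.37) and by 2.12 in C57BL/6J (SE 0.83) in the authors' deposited tables.

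Chek2 and Hscb, an iron-sulphur cluster cochaperone, start 202 bases apart and were called in opposite directions in both strains. Hscb fell by 0.99 in B6CASTF1 (SE 0.41) and fell by 2.70 in C57BL/6J (SE 0.97) in the authors' deposited tables. Xrcc4 and Tmem167, 485 bases apart, likewise parted, with Tmem167 up by 3.06 in B6CASTF1 (SE 0.31) and by 3.17 in C57BL/6J (SE 0.85) in the authors' deposited tables. The third opposite pair in B6CASTF1 was Prkdc and Mcm4, a subunit of the replicative helicase, where Mcm4 fell by 1.92 (SE 0.21) according to the authors' deposited table.

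**Figure D5:**
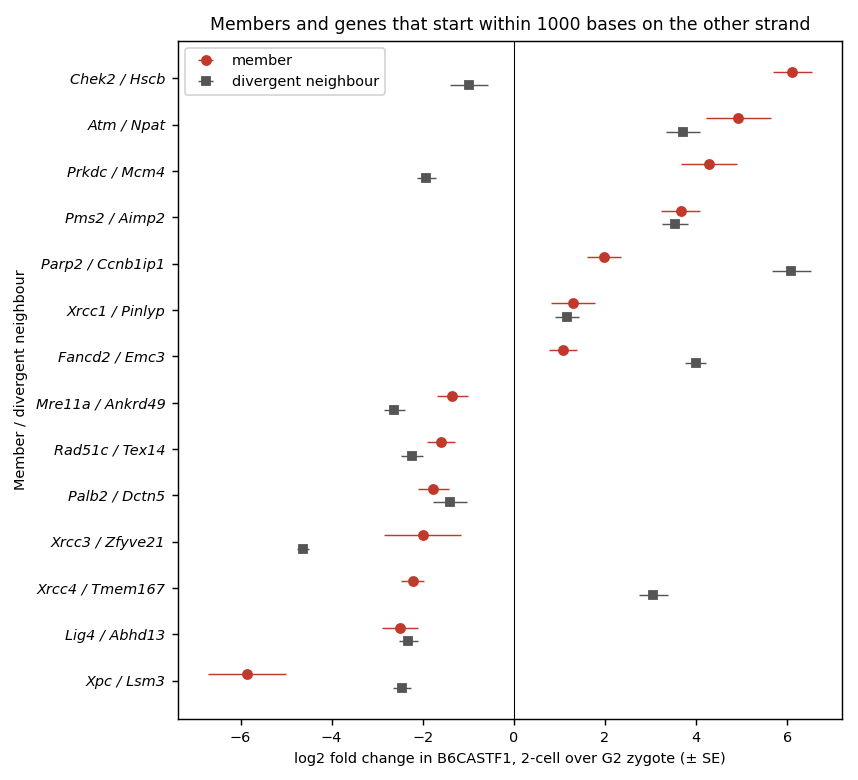
Log2 fold change from G2 zygote to 2-cell embryo in B6CASTF1 (x axis, with 1 SE) of each gene of the set and of the gene that starts within 1000 bases on the other strand, 1 row for each of the 14 pairs in which both genes were called. In 11 of them both genes lie on the same side of 0, and Chek2 with Hscb, Xrcc4 with Tmem167 and Prkdc with Mcm4 lie on opposite sides.

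The exons of 16 of the 39 genes overlap those of a gene on the other strand, and in 6 the overlap covers at least 10% of the gene's exons: Lig3 with Rffl (25.1%), Ercc2 with Klc3 (17.8%), Fanci with Polg (16.0%), Rad54l with Lrrc41 (15.4%), Ogg1 with Camk1 (10.6%) and Fanca with Zfp276 (10.5%). The labels give no strand for the libraries. Where strand was not used, reads from the shared exons cannot be told apart, and their part in the values of these 6 genes was not tested. The 39 genes are also long, with a median transcript of 3750 bases, against 3004 for all genes tested at the B6CASTF1 2-cell step. Among the genes of the set called there, the median was 3449 bases for those that rose and 3750 for those that fell, against 2736 and 3266 for all genes that rose and fell.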

How the data were processed

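Batches of 10 to 15 mouse eggs or embryos were profiled by Smart-seq2 with oligo-dT, per the labels' protocols, in 20 samples of 7 groups. Per the submitters' processing notes, the authors used bcl2fastq, kallisto, TopHat, Picard, DESeq2 and the build mm10, and the notes give no role for each. Their 5 comparison tables carry DESeq2 1.18.1 in the names the authors gave them. The columns the authors deposited hold, per the file headers, the mean normalized count (a signal, the counts divided by size factors and averaged over a strain's libraries), log2 fold changes before and after shrinkage, their SE, the Wald score, and raw and adjusted p-values. The deposited mean counts were identical in all tables of a strain, so each strain was taken as fitted apart.

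The tables used here give no value per sample, so depth is unknown, nothing was refitted, and the authors' SE stands for the precision. Stage levels were solved from the mean count and the fold changes, weighted by samples per stage. Strain differences used a two-sided normal p, adjusted by Benjamini-Hochberg, and the procedure was run on simulated data. The simulated fold changes were normal, with the authors' SE as their true error. The simulation therefore cannot show whether the normal p holds for so few samples or for low levels. Where the authors' adjusted p was missing, a gene counted as not tested.

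The members and lists were chosen with earlier results of these data known. Every called member is named. Mean counts are given for the 3 highest and 3 lowest called changes of a comparison among members with a mean count of at least 10, for the smallest adjusted p of each role group, and for members past the strain test. Of the 130 other pathway genes found (of 135 listed), the called one with the smallest adjusted p in each direction of a comparison is named. Symbols were matched to GENCODE M21 for exons, lengths and neighbours. Alternatives were a threshold of 0.01, Bonferroni adjustment, a log2 fold change of at least 1 and mean counts of at least 10 or 100. Others were centring on the median of genes with mean counts of at least 100, and an SE raised 1.5 times. Implied levels no lower than 1 in either stage, equal weight of each stage and the authors' shrunken fold changes were also tried. Python 3.11.15, pandas 2.3.3 and scipy 1.17.1 were used. Some items are not reported here.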

Additional observations from a re-analysis of the deposited data

Results flagged for a closer look

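The strain test called 8 differences, each given as B6CASTF1 minus C57BL/6J on the log2 scale with both strains normalized separately. From G1 to G2 zygotes the difference was 7.48 for Ercc1, which was called higher in B6CASTF1 and lower in C57BL/6J. From G2 zygotes to 2-cell embryos it was -5.46 for Ercc1, which was called higher in both strains. At the same step it was 5.63 for Palb2, 6.11 for Rad52 and 3.39 for Msh3, which were called lower in both strains. It was 3.93 for Lig3, called lower in C57BL/6J alone, and -3.66 for Lig4 and -6.98 for Xpc, called lower in B6CASTF1 alone. The implied C57BL/6J 2-cell levels were 2.55 for Palb2 and 0.25 for Rad52, and that of Xpc in B6CASTF1 2-cell embryos was 2.92. With 7 of 35 members called, the 2-cell share is near the 16.6% of all genes tested in both strains.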

How the results depend on the processing

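Over the members' calls and strain calls, 487 of 576 comparisons with an alternative kept their direction and side of the threshold. Another 89 were no longer past it and 0 reversed, and 29 of 66 calls held under every alternative. Of the 487, 58 used the shrunken fold change with the authors' adjusted p, so they could not lose a call. Only shrinkage and centring alter the fold change, so no other setting could reverse a direction. Of the counts of called members, those that moved by over 1.5 times were as follows. The 1 call of C57BL/6J G1 zygotes against eggs became 0 among genes with mean counts from 100 up, and 0 where both stages needed an implied level of 1 or more. The 3 of C57BL/6J G2 against G1 zygotes became 0 at a threshold of 0.01, 0 under Bonferroni adjustment and 0 with the SE raised 1.5 times. The 7 of B6CASTF1 G2 against G1 zygotes became 4, 2 and 2 under the same 3 settings. At the 2-cell step, Bonferroni adjustment left 19 of 29 in B6CASTF1 and 7 of 18 in C57BL/6J, and the raised SE left 10 of 18 in C57BL/6J. The strain differences at the 2-cell step were 1 of 7 under Bonferroni adjustment and 1 of 7 with the raised SE, and the 1 in zygotes became 0 with the raised SE. These settings are stricter by construction. Weighting each stage equally gave a median B6CASTF1 2-cell level of 421, against 411 by samples.

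No paired analysis was possible because the deposited columns carry no replicate numbers and the tests are the authors' own. Leaving out a replicate, another normalization and a count model were not run, since they need values per sample. Depth per sample is unknown, the C57BL/6J errors are wide, and a missing call there does not show that a gene did not change.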
